A study of Mus musculus with 8 samples.

Results

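The genes described here are those of the mouse major histocompatibility complex (MHC) and of the machinery that loads its products with peptides. They were chosen by name: every non-control probe whose gene name in the array annotation begins with H2-, and the probes of B2m, Cd74, Ciita, Nlrc5, Tap1, Tap2, Tapbp, Psmb8, Psmb9 and Psmb10. This gave 91 of the 56605 non-control probes of the array, for 53 genes. Of these, 32 genes encode class I chains (4 classical, class Ia, and 28 non-classical, class Ib), 10 encode class II chains, 8 serve the class I pathway and 2 the class II pathway. The remaining gene, H2-Ke6, lies in the MHC but encodes a steroid dehydrogenase with no known part in antigen presentation.

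The samples are whole kidneys of 8 male mice, 20 weeks old, in 4 groups of 2. The db/db mice (strain label C57BLKS/J Iar -+Leprdb/+Leprdb) carry a leptin receptor defect and become obese and diabetic. One db/db group received miRNA-181b-5p-mimic-PEI-NPs, labelled as nanoparticles that carry a mimic of miR-181b-5p, another received control-miRNA-PEI-NPs with a control miRNA, and the last was untreated. The normal mice (C57BLKS/J Iar -m+/m+) have a working leptin receptor. The labels state neither dose, route and schedule nor the sequences of the mimic and the control miRNA. The study set the mimic against these controls to learn which kidney transcripts follow from more miR-181b-5p.

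Class I molecules stand on nearly all cells with a nucleus and show peptides of the cell's own proteins to CD8 T cells. Their heavy chain pairs with B2m. The peptides are cut by the proteasome, whose immune form holds Psmb8, Psmb9 and Psmb10, and are pumped into the endoplasmic reticulum by Tap1 and Tap2 and loaded with the help of Tapbp (tapasin). Class II molecules show peptides from ingested proteins to CD4 T cells, and are made mainly by dendritic cells, macrophages and B cells. Cd74, the invariant chain, occupies their groove until H2-DM exchanges it for a peptide, and H2-O restrains H2-DM. Ciita drives transcription of class II genes and Nlrc5 that of class I genes, and interferon gamma induces both. Tubule cells of an inflamed kidney can also make class II. C57BLKS/J mice carry the d haplotype of the MHC, whereas the reference sequence used to design many probes is that of C57BL/6 mice, which carry haplotype b.

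The 4 probes shown next read the membrane-spanning part of class I chains. Capitals mark the run of bases that each shares with the H2-L probe, and in the H2-L probe the run shared with the H2-T23 probe. They are shown because class I genes are near copies of each other, so a spot named for a gene can also bind the RNA of its relatives. They are array probes 5′ to 3′, with their mm9 positions.
H2-K1 probe (chr17:34133984-34134043): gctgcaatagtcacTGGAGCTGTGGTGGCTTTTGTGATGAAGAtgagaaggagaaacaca
H2-L probe (chr17:35403191-35403250): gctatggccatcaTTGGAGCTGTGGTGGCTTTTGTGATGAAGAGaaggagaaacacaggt
H2-T23 probe (chr17:36167338-36167574, across an intron): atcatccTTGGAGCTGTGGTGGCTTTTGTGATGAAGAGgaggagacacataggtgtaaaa
H2-Q8 probe (chr17:35565247-35565306): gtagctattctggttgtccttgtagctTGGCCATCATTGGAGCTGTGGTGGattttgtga
The H2-K1 probe shown is a second, dimmer probe of that gene, and the H2-K1 levels given further on come from another one. The run shared with the H2-L probe was 29 bases long in this H2-K1 probe, 31 in the H2-T23 probe and 24 in the H2-Q8 probe. Of the 20 probes that represent tested class I genes, 5 shared at least 20 bases in a row with a probe of another member gene. No such run was longer than 10 bases for the 7 class II probes. Probes were compared with each other only, so a short run does not show that a probe misses the RNA of a relative. How far the signals of class I relatives mix on the array was not tested, so a level printed for a class I gene with such a probe is a level of that spot.

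Class II genes are represented here by probes of H2-Ab1 and H2-Ea. H2-Ab1, the beta chain of the I-A molecule, is read by a pair of probes that overlap by 51 bases and differ at 1 base, T21C in the windows below, counted from 1 at the 5′ end (capitals). H2-Ea encodes the alpha chain of the I-E molecule, which mice of haplotype b do not make.
H2-Ab1 probe at chr17:34406296-34406355 (mm9), 30 bases: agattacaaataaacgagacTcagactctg
H2-Ab1 probe at chr17:34406305-34406363 (mm9), 30 bases: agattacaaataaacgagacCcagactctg
H2-Ea probe (chr17:34481469-34481528, mm9): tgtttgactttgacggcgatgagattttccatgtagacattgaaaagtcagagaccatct
The T probe of H2-Ab1 gave log2 levels of 8.69 and 5.05 in mimic kidneys, 5.42 and 4.72 in control miRNA kidneys, 4.52 and 4.45 in untreated db/db kidneys and 6.41 and 5.00 in normal kidneys. With the C probe the levels were 8.72 and 5.05, 5.26 and 4.49, 4.46 and 4.41, and 6.46 and 5.02 in the same order of groups. The pair thus read each array within 0.23 log2 units of each other. A log2 level is the signal of a probe relative to the 75th percentile of its array, so 0 marks that percentile and a difference of 1 is a doubling.

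The miRNA that the mimic copies is given next, with its seed (bases 2 to 8, the part that pairs with targets) in capitals, from RefSeq (GRCm38.p6).
mmu-miR-181b-5p: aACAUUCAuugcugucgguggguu

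Stretches of 5 member promoters follow, because the levels of 4 of these genes move together in what follows and those of H2-Q4 do not. They end before the transcription start and come from RefSeq (GRCm38.p6), which held a promoter window for 37 of the 53 genes. Capitals mark the longest run of letters that the class I windows of H2-K1, H2-Q7 and H2-Q4 share, the longest that the class II windows of H2-Eb1 and H2-DMb1 share, and GATTGG, the reversed CCAAT box bound by NF-Y, on both strands of the 250 bases before each start.
H2-K1 promoter (chr17:34000334-34000535, minus strand): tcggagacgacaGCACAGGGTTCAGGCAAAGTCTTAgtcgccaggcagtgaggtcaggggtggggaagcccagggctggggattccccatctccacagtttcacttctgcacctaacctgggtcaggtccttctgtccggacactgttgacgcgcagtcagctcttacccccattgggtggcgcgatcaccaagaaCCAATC
H2-Q7 promoter (chr17:35438945-35439154, plus strand): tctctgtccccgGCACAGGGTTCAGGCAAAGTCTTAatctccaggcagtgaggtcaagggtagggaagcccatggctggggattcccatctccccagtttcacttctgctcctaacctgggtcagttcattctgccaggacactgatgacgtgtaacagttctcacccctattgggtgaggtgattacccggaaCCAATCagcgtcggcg
H2-Q4 promoter (chr17:35379382-35379579, plus strand): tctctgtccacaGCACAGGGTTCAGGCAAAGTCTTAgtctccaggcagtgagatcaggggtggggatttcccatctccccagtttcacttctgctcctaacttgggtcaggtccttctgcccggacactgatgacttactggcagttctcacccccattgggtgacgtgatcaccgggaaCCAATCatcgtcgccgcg
H2-Eb1 promoter (chr17:34305766-34305849, plus strand): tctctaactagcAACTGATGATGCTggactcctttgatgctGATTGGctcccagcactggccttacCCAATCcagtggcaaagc
H2-DMb1 promoter (chr17:34153087-34153146, plus strand): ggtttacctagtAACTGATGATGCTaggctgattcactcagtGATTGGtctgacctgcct
No marked run overlaps another in these stretches. The 24-base class I run, GCACAGGGTTCAGGCAAAGTCTTA, stood in 3 member genes and in 0.0152% of all 32851 promoter windows. The 13-base class II run, AACTGATGATGCT, stood in 2 member genes and in 0.00609% of windows. GATTGG stood in 28 member genes and in 14.6% of windows. The runs were chosen by these genes, so their rarity elsewhere is a description, and no match was tested as a site.

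The arrays were of like quality, but 1 of the 8 stood apart. Between 56.5% and 62.5% of spots lay well above background per array, and no spot of a member was saturated. Replicate arrays correlated at r of 0.976 for the mimic, 0.995 for control miRNA, 0.997 for untreated db/db and 0.992 for normal mice. Genes more than 2-fold apart between replicates numbered 2474, 358, 168 and 692 in the same order of groups. The mouse called mimic replicate 1 had a score of 82.2 on principal component 1 (44.7% of the variance), where mimic replicate 2 scored 16.7 and the normal mice -53.6 and -53.8. All arrays sat on 1 slide, with the mimic and control miRNA arrays in row 2 and the untreated and normal arrays in row 1. Columns 3 and 4 held the mimic and untreated arrays and columns 1 and 2 the control miRNA and normal arrays. Place on the slide and group cannot be told apart. Kidney markers were well above background on all arrays for 9 of 9 genes, among them Slc34a1, Lrp2, Umod, Slc12a1 and Aqp2.

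Expression of 38 of the 53 genes could be tested, by the rule that in some group both arrays read a probe well above background. They comprised 20 class I chains (all 4 of class Ia and 16 of class Ib), 7 class II chains, the 8 class I pathway genes, Cd74 and Ciita, and H2-Ke6. The 15 genes that failed were 12 class Ib genes, among them the 6 of the H2-M10 family, which are known from the vomeronasal organ, and the class II genes H2-DMb2, H2-Eb2 and H2-Oa. Of the 91 probes, 52 were well above background on all 8 arrays, 26 on none and 13 on some.

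Several members gave strong signals in every kidney. H2-Ab1 reached 4.45 to 8.69, B2m 5.44 to 8.20, H2-K1 5.16 to 7.79 and H2-Eb1, the beta chain of I-E, 3.94 to 8.02 over the 8 arrays. The regulators were dimmer, with Ciita between -1.32 and 4.38 and Nlrc5 between -3.08 and 1.86. Levels of different probes depend on the probe as well as the RNA, so they are not ranked against each other.

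In 1 kidney of the mimic group most tested members stood above every other kidney. Mimic replicate 1 was the highest of the 8 arrays for 34 of 38 tested members, against 22.2% of all 22368 genes tested. It lay more than 1 log2 unit above the highest of the other 7 arrays for 31 of 38 members, against 2.24% of all genes. Class II chains met that mark in 6 of 7 genes, class I chains in 15 of 20, class I pathway genes in 8 of 8 and class II pathway genes in 2 of 2. These counts describe 1 mouse and carry no test.

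**Figure D1:**
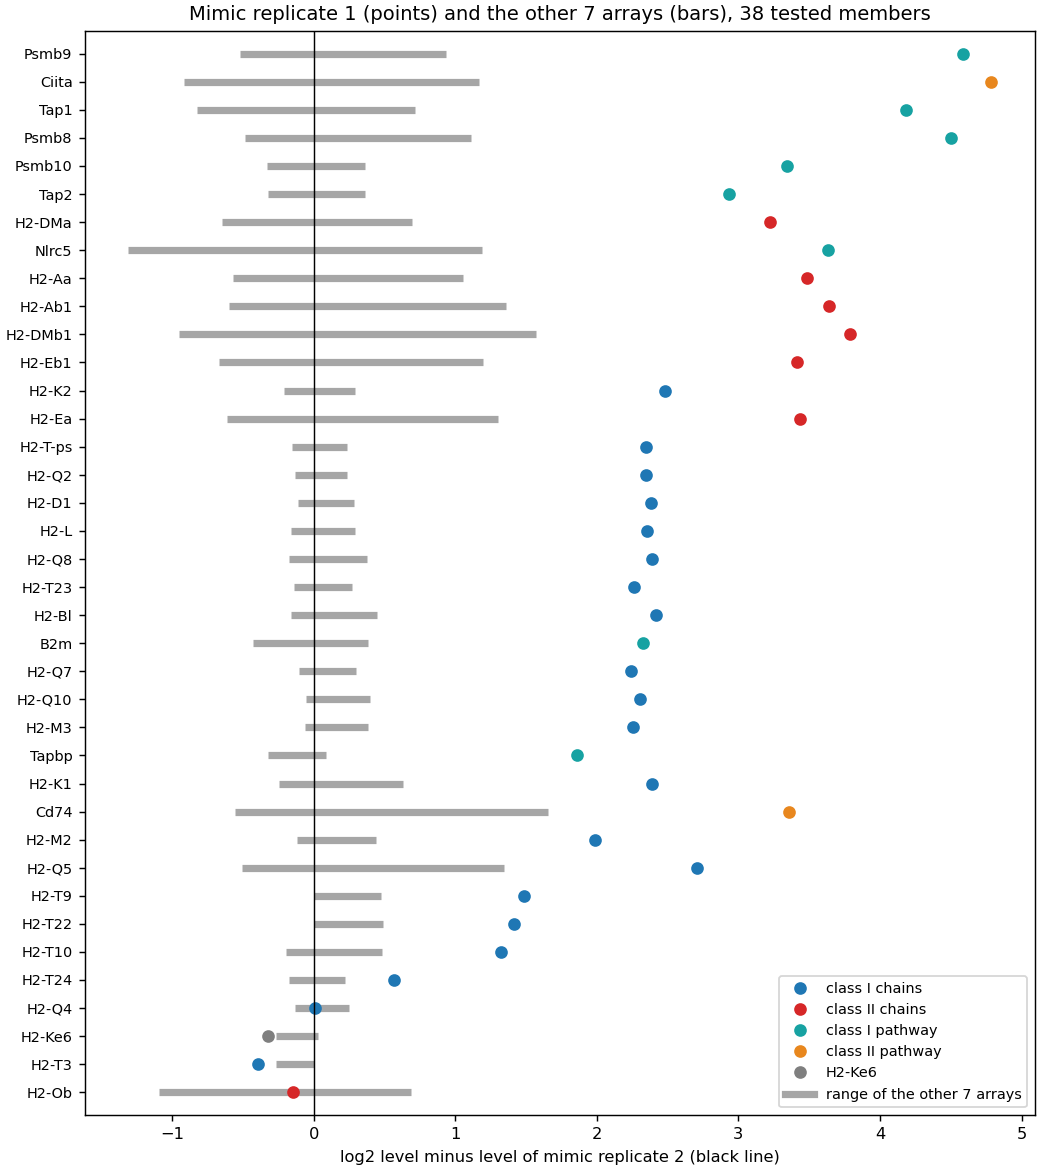
Log2 level of each of the 38 tested members on mimic replicate 1 (coloured points, by class), set against mimic replicate 2 (black line at 0) with the range of the 7 arrays other than mimic replicate 1 (grey bars). Points of 34 members lie to the right of the bar, and H2-Q4, H2-Ke6, H2-T3 and H2-Ob do not.

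Ciita, the switch for class II transcription, had levels of 4.38 and -0.41 in mimic kidneys, -0.04 and -0.83 in control miRNA kidneys, -1.18 and -1.32 in untreated db/db kidneys and 0.76 and 0.14 in normal kidneys. Mimic replicate 1 stood 27.6-fold above mimic replicate 2 and 12.3-fold above normal replicate 1, the next highest array. Nlrc5, its class I counterpart, had 1.86 and -1.77 in mimic kidneys, -1.62 and -2.62 in control miRNA kidneys, -2.70 and -3.08 in untreated db/db kidneys and -0.58 and -1.12 in normal kidneys. For both regulators the untreated db/db pair lay below all other arrays, and the normal pair lay above all arrays but mimic replicate 1.

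Subunits of the immunoproteasome and the peptide pump lay far apart between the mimic mice. Psmb9 had 5.16 and 0.57 in mimic kidneys, 0.94 and 0.06 in control miRNA kidneys, 0.10 and 0.09 in untreated db/db kidneys and 1.51 and 0.86 in normal kidneys, so the mimic mice lay 24-fold apart. Psmb8 had 4.76 and 0.26 in mimic kidneys, 0.66 and -0.11 in control miRNA kidneys, -0.22 and -0.12 in untreated db/db kidneys and 1.37 and 0.53 in normal kidneys. Psmb10 had 6.72 and 3.38 in mimic kidneys, 3.48 and 3.19 in control miRNA kidneys, 3.05 and 3.13 in untreated db/db kidneys and 3.74 and 3.20 in normal kidneys. On all 3 subunits mimic replicate 1 was the one high array. The subunits that Psmb8, Psmb9 and Psmb10 replace did not follow: Psmb5 had 4.93 and 4.86, Psmb6 6.25 and 6.23 and Psmb7 3.40 and 3.51 in mimic kidneys. Tap1 had 4.00 and -0.18 in mimic kidneys, -0.08 and -0.79 in control miRNA kidneys, -1.002 and -0.93 in untreated db/db kidneys and 0.54 and -0.15 in normal kidneys, a gap of 18.1-fold between the mimic mice. Tap2 had 5.52 and 2.59 in mimic kidneys, 2.56 and 2.45 in control miRNA kidneys, 2.46 and 2.27 in untreated db/db kidneys and 2.95 and 2.57 in normal kidneys. Tapbp lay 3.64-fold apart between the mimic mice, the least of this pathway, with 5.85 and 3.98 in mimic kidneys, 3.88 and 3.73 in control miRNA kidneys, 3.67 and 3.66 in untreated db/db kidneys and 4.07 and 3.84 in normal kidneys. B2m, the light chain, had 8.20 and 5.87 in mimic kidneys, 6.11 and 5.74 in control miRNA kidneys, 5.72 and 5.59 in untreated db/db kidneys and 6.25 and 5.44 in normal kidneys.

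Class II chains were between 9.33-fold and 13.8-fold apart between the mimic mice in 6 of 7 genes. H2-Eb1 had 8.02 and 4.61 in mimic kidneys, 4.92 and 3.97 in control miRNA kidneys, 3.94 and 4.02 in untreated db/db kidneys and 5.80 and 5.10 in normal kidneys. H2-DMb1, a chain of the peptide exchanger H2-DM, had 5.39 and 1.61 in mimic kidneys, 1.97 and 0.66 in control miRNA kidneys, 0.97 and 0.85 in untreated db/db kidneys and 3.18 and 1.56 in normal kidneys. Its partner chain H2-DMa had 2.85 and -0.37, -0.17 and -0.74, -0.70 and -0.87, and 0.32 and -1.01 in the same order of groups. On all 3 genes mimic replicate 1 was alone at the top, and normal replicate 1 came next. The alpha chain H2-Aa had 1.58 and -1.90 in mimic kidneys, -1.45 and -2.14 in control miRNA kidneys, -2.47 and -2.14 in untreated db/db kidneys and -0.84 and -1.63 in normal kidneys. The alpha chain H2-Ea had 1.71 and -1.72 in mimic kidneys, -1.40 and -2.23 in control miRNA kidneys, -2.33 and -2.17 in untreated db/db kidneys and -0.42 and -1.37 in normal kidneys. H2-Ea was well above background on all 8 arrays. Cd74 had 6.59 and 3.23 in mimic kidneys, 3.68 and 2.69 in control miRNA kidneys, 2.67 and 2.77 in untreated db/db kidneys and 4.89 and 3.72 in normal kidneys.

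H2-Ob, a chain of H2-O, was near background. Its levels were -4.89 and -4.75 in mimic kidneys, -5.41 and -5.83 in control miRNA kidneys, -4.77 and -4.99 in untreated db/db kidneys and -4.39 and -4.05 in normal kidneys. It lay well above background on the 2 normal arrays and on no other, so its values in the db/db groups are upper bounds and have no order. It passed the filter only through the normal pair, and its calls and p-values are read no further than that.

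Class I chains lay closer together than class II chains. H2-K1, a classical heavy chain, had 7.79 and 5.40 in mimic kidneys, 5.64 and 5.39 in control miRNA kidneys, 5.22 and 5.16 in untreated db/db kidneys and 6.03 and 5.54 in normal kidneys. H2-D1, another classical heavy chain, had 7.06 and 4.68 in mimic kidneys, 4.95 and 4.70 in control miRNA kidneys, 4.58 and 4.66 in untreated db/db kidneys and 4.96 and 4.57 in normal kidneys. Mimic replicate 1 stood 5.23-fold above mimic replicate 2 for H2-K1 and 5.21-fold for H2-D1, with the other 7 arrays inside 1 log2 unit of each other. H2-K2, a relative of H2-K1, had 7.20 and 4.72 in mimic kidneys, 5.01 and 4.84 in control miRNA kidneys, 4.64 and 4.64 in untreated db/db kidneys and 4.98 and 4.51 in normal kidneys. H2-T23 (Qa-1, the ligand of an inhibitory receptor of NK cells) had 7.21 and 4.95 in mimic kidneys, 5.12 and 5.00 in control miRNA kidneys, 4.81 and 4.88 in untreated db/db kidneys and 5.22 and 4.88 in normal kidneys. H2-M3, which presents formylated peptides of bacteria, had 1.70 and -0.55 in mimic kidneys, -0.17 and -0.61 in control miRNA kidneys, -0.32 and -0.47 in untreated db/db kidneys and -0.30 and -0.38 in normal kidneys. Again only mimic replicate 1 stood out. H2-Q7 (Qa-2) had 6.26 and 4.02 in mimic kidneys, 4.30 and 4.03 in control miRNA kidneys, 3.92 and 3.93 in untreated db/db kidneys and 4.32 and 3.93 in normal kidneys. H2-Q10, a class I molecule secreted by liver, had 4.59 and 2.29 in mimic kidneys, 2.53 and 2.41 in control miRNA kidneys, 2.23 and 2.28 in untreated db/db kidneys and 2.68 and 2.30 in normal kidneys. These 4 lay between 4.74-fold and 4.93-fold apart between the mimic mice. H2-T10 and H2-T22, which γδ T cells recognise, lay closer, at 2.51-fold and 2.67-fold. H2-T10 had 0.83 and -0.50 in mimic kidneys, -0.66 and -0.57 in control miRNA kidneys, -0.67 and -0.70 in untreated db/db kidneys and -0.18 and -0.02 in normal kidneys. H2-T22 had 2.34 and 0.92 in mimic kidneys, 1.05 and 1.07 in control miRNA kidneys, 1.05 and 0.96 in untreated db/db kidneys and 1.41 and 1.33 in normal kidneys. For both, the normal pair lay above all arrays but mimic replicate 1.

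A few members lay closer together between the mimic mice. H2-Q4 (Qb-1), whose promoter carries the same marked run as those of H2-K1 and H2-Q7, had 5.28 and 5.27 in mimic kidneys, 5.26 and 5.35 in control miRNA kidneys, 5.13 and 5.15 in untreated db/db kidneys and 5.51 and 5.45 in normal kidneys. Its probe shared at most 9 bases in a row with a probe of another member gene. H2-T3, the thymus leukaemia antigen of intestine, had -1.40 and -1.01 in mimic kidneys, -1.28 and -1.23 in control miRNA kidneys, -1.19 and -1.10 in untreated db/db kidneys and -1.24 and -1.09 in normal kidneys. Its lowest array was mimic replicate 1. H2-T24 differed little and had -1.84 and -2.40 in mimic kidneys, -2.23 and -2.31 in control miRNA kidneys, -2.24 and -2.58 in untreated db/db kidneys and -2.18 and -2.27 in normal kidneys. H2-Ke6 had 5.22 and 5.55 in mimic kidneys, 5.38 and 5.29 in control miRNA kidneys, 5.31 and 5.41 in untreated db/db kidneys and 5.28 and 5.58 in normal kidneys.

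**Figure D2:**
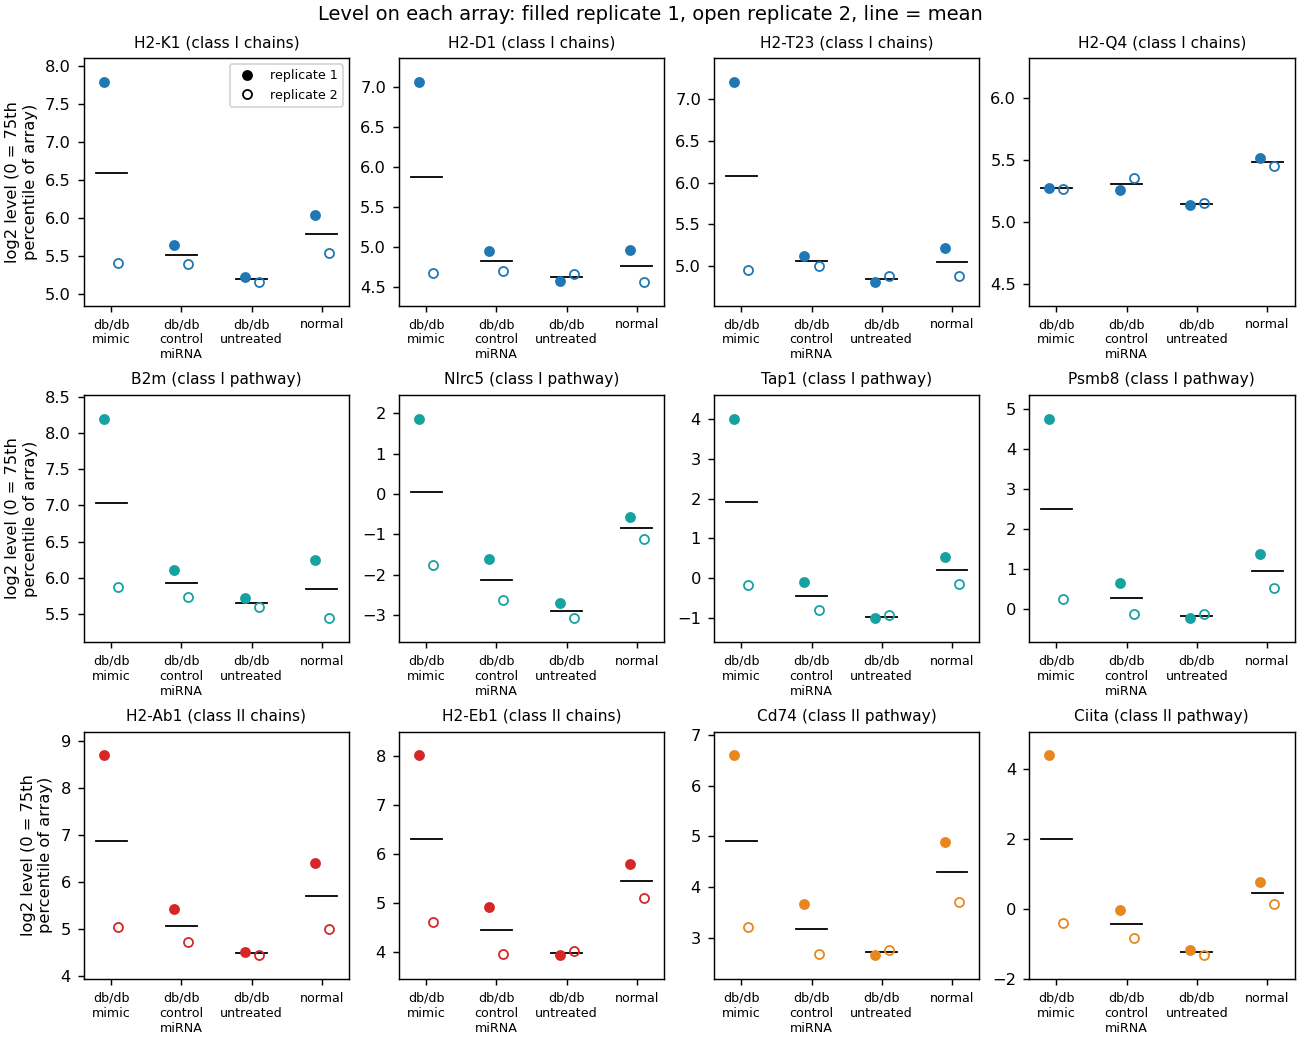
Log2 level of 12 members on each array (filled points, replicate 1, open points, replicate 2, lines, group means), with groups from mimic at the left to normal at the right and a separate vertical scale for each gene. Mimic replicate 1 lies above all other arrays in 11 of the 12 panels, H2-Q4 being the exception.

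Neighbouring genes were set beside the members. Among 142 tested genes that are no members but lie between the outermost member probes on chromosome 17 (34063096 to 37618439, mm9), the median difference was 0.0028 log2 units and 13 genes (9.15%) lay more than 1 log2 unit higher in mimic replicate 1, against 5.05% of all genes. Members on the same stretch had a median of 2.35 and 27 of 32 (84.4%) beyond that mark. The 5 tested members on other chromosomes (B2m, Cd74, Ciita, Nlrc5 and Psmb10) all lay beyond it. Neighbours with the widest gaps were Ubd (6.12), a ubiquitin-like protein that interferon induces, and the complement genes C4b (4.59) and C4a (4.06), which were picked after their values were seen.

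The genotype comparison set untreated db/db kidney against normal kidney, both groups free of nanoparticles. Members were lower in db/db kidney on average, and class II chains by more than class I chains. The median log2 difference was -1.22 over 7 class II chains, -0.22 over 20 class I chains, -0.74 over 8 class I pathway genes and -1.64 over Cd74 and Ciita, against -0.01 over all genes tested. Over all 4 groups at once, 0 of 38 members passed limma's moderated F test, against 2.87% of all genes. In the genotype comparison no member passed at an adjusted p under 0.05 either (0 of 38, limma over all 8 arrays), against 3.35% of all genes. At an unadjusted p under 0.05 there were 2, H2-Q4 and H2-Ob, against 24.8% of all genes. The arrays did not overlap, with both untreated db/db arrays lower, for 27 of 38 members (6 of 7 class II chains, 12 of 20 class I chains), against 31.6% of all genes. H2-Ob is counted among these and in the class II median, though it passed the filter only through the normal pair.

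The fit took the spread of all 4 groups together, the mimic pair included. Nlrc5 had the largest difference, -2.04 (SE 1.09, 95% interval -4.69 to 0.61), and an adjusted p of 0.302. With mimic replicate 1 left out its adjusted p was 0.0258, and with only the 4 arrays compared it was 0.0187. Ciita (-1.70, adjusted p 0.495) likewise reached 0.0272 and 0.0236. H2-T10 (-0.58, adjusted p 0.407) reached 0.0272 without mimic replicate 1, and H2-Eb1 (-1.47, adjusted p 0.423) reached 0.0356 with only the arrays compared. That made 3 members called without mimic replicate 1 (Nlrc5, H2-T10 and Ciita, where 14.6% of all genes were called) and 3 with only the arrays compared (Nlrc5, H2-Eb1 and Ciita, where 10.1% were). These shares of members do not exceed those of all genes.

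Among class I chains, H2-Q5 lay nearest to the class II genes. It had -0.75 and -0.49 in untreated db/db kidneys and 1.09 and 0.32 in normal kidneys, a difference of -1.33 (adjusted p 0.375), where the other class I chains lay between -0.60 and 0.02. H2-K1 was -0.60 (adjusted p 0.642) and H2-D1 -0.14 (adjusted p 0.923). Among class II chains the difference was -1.45 for H2-DMb1, -1.36 for H2-Ea, -1.22 for H2-Ab1, -1.07 for H2-Aa and -0.44 for H2-DMa, with adjusted p from 0.467 to 0.824. In whole kidney, fewer cells of a type and less RNA per cell cannot be told apart. Markers of class II-bearing cells are given further on, and their part in the class II gap was not tested.

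**Figure D3:**
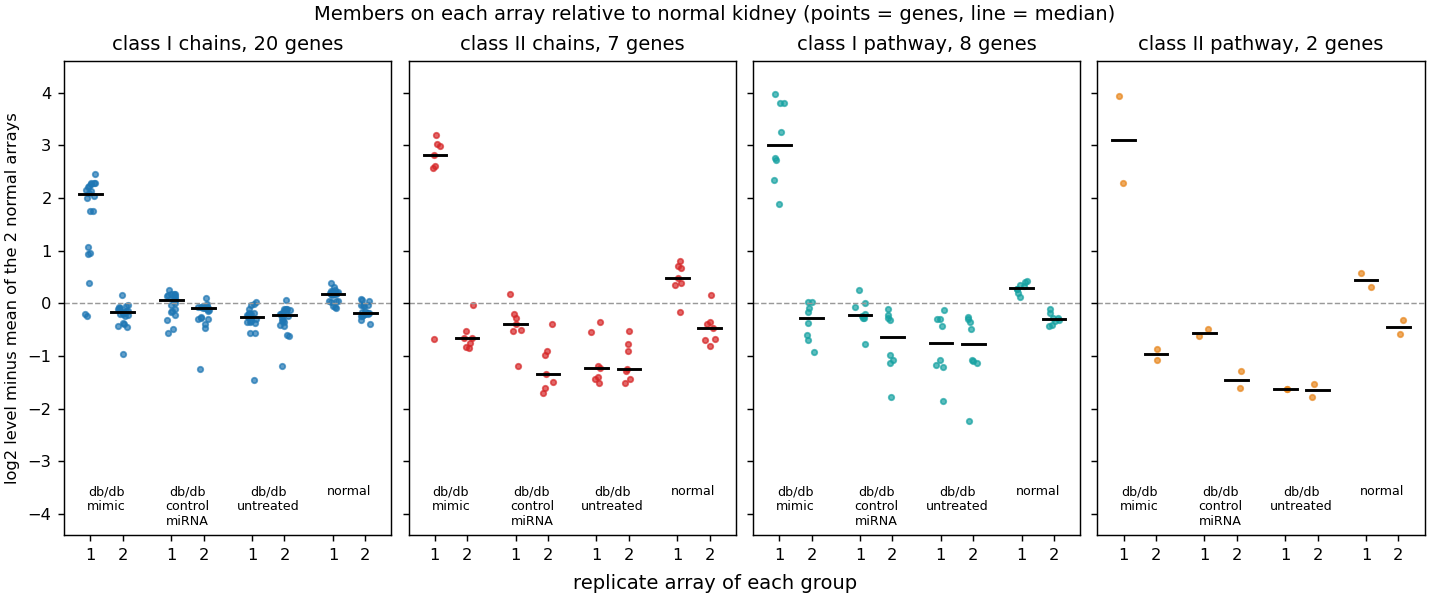
Log2 level of each tested member minus its mean over the 2 normal arrays (points, one per gene, lines, medians), by class and for each of the 8 arrays from mimic at the left to normal at the right. Class II chains of both untreated db/db arrays have medians of -1.23 and -1.25 and class I chains of -0.25 and -0.22, and on mimic replicate 1 the medians are 2.82 for class II and 2.07 for class I chains.

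Control miRNA kidney set against normal kidney gave a median of -0.92 over class II chains, -0.03 over class I chains and -0.44 over class I pathway genes. H2-Ob alone was called lower (limma, adjusted p 0.0358), which is 1 of 38 members against 1.72% of all genes. Since it was not well above background on the control miRNA arrays, the measured bound is that it was at least 1.28-fold lower there. Both control miRNA arrays lay below both normal arrays for 12 of 38 members, H2-Ob among them, against 30.3% of all genes. Without mimic replicate 1, 2 members were called (H2-Ob and H2-T10) against 11% of all genes. The H2-Ob call ended with quantile normalization (adjusted p 0.0803), normexp background (0.0753), a variance trend (0.0684), no filter on dim probes (0.0735), the replicate block (0.0660), without either untreated array (0.102) and without any array of the groups compared (0.108 to 0.197). Ciita differed by -0.89 (adjusted p 0.755), Nlrc5 by -1.27 (0.545) and Cd74 by -1.12 (0.584).

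The nanoparticle comparison, control miRNA against untreated db/db kidney, called 0 members and 0 of all genes (limma). At an unadjusted p under 0.05 there was 1 member, H2-Ob, against 3.25% of all genes, and it was below background in both groups. Differences were small and mostly positive, with medians of 0.44 for class II chains, 0.20 for class I chains and 0.33 for class I pathway genes. Both control miRNA arrays lay above both untreated arrays for 24 of 38 members, against 17.8% of all genes. These were 16 of 20 class I chains and 6 of 8 class I pathway genes, but 1 of 7 class II chains, whose control miRNA replicates lay further apart. For H2-K1 the interval of the difference ran from -1.39 to 2.03 around 0.32.

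The mimic comparison, mimic against control miRNA, held medians of 1.80 for class II chains, 1.00 for class I chains and 1.94 for class I pathway genes, and no call. In all, 0 of 38 members and 0 of all genes passed (limma), and 1 member against 9.1% of all genes had an unadjusted p under 0.05. That member was H2-Ob, below background in both groups. Differences had wide errors, such as 2.42 for Ciita (SE 1.39, 95% interval -0.96 to 5.81, adjusted p 0.623) and 1.08 for H2-K1 (SE 0.70, -0.63 to 2.79, 0.641). The medians rested on mimic replicate 1. Without it the medians were 0.09 for class II chains, -0.14 for class I chains and 0.08 for class I pathway genes, with 0 members called, against 0.51% of all genes. Both mimic arrays lay above both control miRNA arrays for 4 of 38 members, H2-Ob among them, against 18.8% of all genes. With it as the lone mimic array, assumed to vary like the arrays of the other groups, 33 of 38 members were called, where 13.6% of all genes were. The 5 that were not are H2-Ob, H2-Q4, H2-T3, H2-T24 and H2-Ke6.

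Mimic against untreated db/db kidney gave medians of 2.25 for class II chains and 1.23 for class I chains, and mimic against normal kidney 1.08 and 0.93. No member passed in either comparison. At an unadjusted p under 0.05 there was 1 member in each, Nlrc5 against untreated (13.9% of all genes) and H2-Ob against normal (30% of all genes). Adjusted-p calls over all genes were 0% against untreated and 8.27% against normal mice. Both mimic arrays lay above both untreated arrays for 31 of 38 members, against 21.7% of all genes. Without mimic replicate 1, 0 members were called in either, against 0% of all genes in mimic against untreated and 8.17% in mimic against normal kidney. With it as the lone mimic array 33 members were called in each, against 18.7% and 28.1% of all genes in the same order. Without mimic replicate 1 the class II and class I medians were 0.53 and 0.10 against untreated db/db kidney, and -0.66 and -0.17 against normal kidney. These 2 comparisons and that with control miRNA share the mimic arrays, so they do not support each other.

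Class II and class I can be set side by side on each array by the median deviation from the normal mean. The class II median minus the class I median was 0.75 and -0.49 on the mimic arrays, -0.45 and -1.24 on the control miRNA arrays, -0.98 and -1.03 on the untreated db/db arrays and 0.30 and -0.30 on the normal arrays. The pooled SD between replicates was 0.56. Both untreated and both control miRNA arrays lay below both normal arrays, and the mimic pair spanned the whole range of the normal pair. The difference between group medians, class II minus class I, was -0.999 for untreated against normal and -0.89 for control miRNA against normal. Without normal replicate 1 these were -0.60 and -0.35, and without control miRNA replicate 2 the second was -0.45.

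Replicates of 3 groups differed in the same sense over the members. Replicate 1 was above replicate 2 for 35 of 38 members in the mimic pair, 34 in the control miRNA pair and 33 in the normal pair, but 16 in the untreated pair. Over all genes these shares were 42.5%, 51.9%, 47.0% and 45.9% in the order mimic, control miRNA, normal and untreated. The median gap over class II chains was 3.44 in the mimic pair, 0.70 in the control miRNA pair, 0.95 in the normal pair and 0.07 in the untreated pair, and over class I chains it was 2.28, 0.16, 0.36 and -0.03. Class II genes were thus the more variable class within groups as well.

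Gaps and differences were compared gene by gene. Across 37 member genes (without H2-Ke6), the gap of the mimic pair correlated with that of the control miRNA pair at r = 0.74 (Spearman 0.79), and over all genes at r = 0.06. It correlated with the gap of the normal pair at r = 0.75 (0.85) and with that of the untreated pair at r = -0.15 (-0.18), and over all genes at 0.16 and 0.13. With the untreated minus normal difference, which shares no array with it, the gap of the mimic pair correlated at r = -0.65 (-0.64), and that of the control miRNA pair at r = -0.87 (-0.69). Over all genes these were -0.11 and -0.13. Genes are not independent replicates, and class I relatives may share signal, so these values describe the arrays and have no p.

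**Figure D4:**
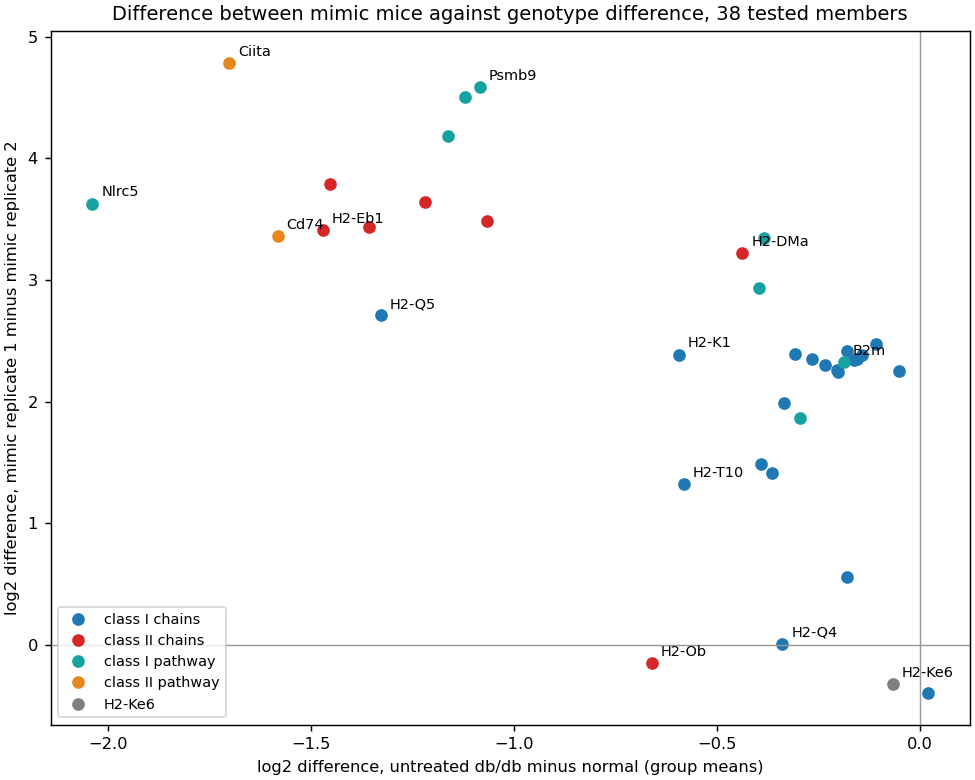
For each of the 38 tested members, the log2 difference between mimic replicate 1 and mimic replicate 2 (vertical) against the log2 difference between untreated db/db and normal kidney (horizontal), coloured by class. Most class II genes and the regulators lie at the upper left and most class I chains at the right, with H2-Q5 nearest to the class II genes. The class II chain H2-DMa lies to the right of the class I chains H2-K1, H2-T10 and H2-Q5. H2-Ob is drawn from its measured values, which lie below background on the db/db arrays.

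Other genes of antigen presentation moved less than the members. A list of cathepsins, chaperones, regulators and related factors (35 listed) held 34 tested genes. Their median gap between mimic replicate 1 and mimic replicate 2 was 0.30. Of these genes, 7 lay more than 1 log2 unit higher in mimic replicate 1, against 5.05% of all genes. Among them were Irf1 (3.41), the interferon-induced activator of class I genes, and Tapbpl (2.29), a relative of tapasin. Ctss, the protease that trims Cd74, had 3.88 and 1.91 in mimic kidneys, 1.98 and 1.29 in control miRNA kidneys, 1.32 and 1.42 in untreated db/db kidneys and 2.27 and 2.02 in normal kidneys. Of the RFX and NF-Y subunits that bind class II promoters, Rfx5 had -3.36 and -4.11 in mimic kidneys, Rfxank 0.79 and 0.64, and Rfxap 1.35 and 1.45. Nfya had -0.30 and -0.21, Nfyb 0.11 and 0.13, and Nfyc 4.26 and 4.56. None of these 6 had a measured gap of 1 log2 unit between the mimic mice. Rfx5 was not well above background on mimic replicate 2, so its gap is a lower bound. In the tests, 1 of 34 was called in untreated db/db against normal kidney (Cd86, a costimulatory ligand, lower with an adjusted p of 0.0292, and not well above background on either untreated array). Mimic against normal kidney called Marchf1, the ubiquitin ligase that removes class II from the surface, lower (-2.85, adjusted p 0.0163) and Hfe, a class I-like regulator of iron, higher (1.07, 0.0281). Over all genes, 3.35% were called for untreated and 8.27% for mimic against normal kidney. Marchf1 had 0.00 and 1.39 in mimic kidneys, 2.63 and 2.58 in control miRNA kidneys, 2.26 and 2.32 in untreated db/db kidneys and 3.71 and 3.39 in normal kidneys. It was thus lowest on mimic replicate 1 and highest in normal kidneys, and a link to class II levels was not tested.

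Interferon-induced genes moved with the members. Of 25 tested genes (27 listed), 21 lay more than 1 log2 unit higher in mimic replicate 1 than in mimic replicate 2. Over all genes 5.05% did so, and the median gap of the 25 was 1.76. Igtp had 7.62 and 2.33 in mimic kidneys, 2.41 and 1.36 in control miRNA kidneys, 1.16 and 1.32 in untreated db/db kidneys and 3.12 and 2.28 in normal kidneys. The widest gap was that of Gbp6 (6.74). Ifng itself was not among the genes that could be tested. Untreated db/db against normal kidney gave a median of -0.87 with 0 of 25 called, and 10 called lower without mimic replicate 1, where 14.6% of all genes were called. The summed signal of the list was 563 and 46.6 in mimic kidneys and 51.8 and 36.0 in control miRNA kidneys. It was 34.3 and 33.7 in untreated db/db kidneys and 55.2 and 50.7 in normal kidneys. The brightest genes weigh most in this sum, among them Igtp and Iigp1 (7.33 on mimic replicate 1).

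Markers of cells that carry class II were lower in db/db kidney too. Of 18 tested macrophage and dendritic cell genes (20 listed), 3 were called lower in untreated db/db than in normal kidney, namely Csf1r (-1.22, adjusted p 0.0295), Ms4a7 (-1.75, 0.0138) and Flt3 (0.0246), and 16 did not overlap, with db/db lower. Over all genes, 3.35% were called in either direction and 31.6% did not overlap, with db/db lower. Flt3 and Clec9a, both among the 16, were not well above background on any db/db array and passed the filter only through the normal pair. The median difference of the 18 was -1.08. Their summed signal, relative to the 75th percentile, was 80.1 and 27.5 in mimic kidneys and 41.7 and 38.1 in control miRNA kidneys. It was 33.8 and 35.5 in untreated db/db kidneys and 71.7 and 68.6 in normal kidneys. The brightest genes weigh most in such a sum, among them Lyz2 (5.55 on mimic replicate 1) and Itgam (4.77 and 4.69 in normal kidneys). Without mimic replicate 1, 12 of 18 were called lower and 1 higher in untreated db/db kidney, where 14.6% of all genes were called. Of the dendritic cell markers, Xcr1 and Cd209a were not detected by the rule, and Clec9a and Flt3 were well above background on 2 arrays each. Markers of lymphocytes were lower in untreated db/db kidney by their medians, with 0 called. The median difference was -0.80 over 14 T and NK cell genes, 13 of which did not overlap, with db/db lower. It was -0.31 over 8 B and plasma cell genes, 7 of which did so, against 31.6% of all genes. Without mimic replicate 1, 5 T and NK cell genes and 1 B and plasma cell gene were called lower. Their part in the members' values was not tested.

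In mimic replicate 1, markers of macrophages lay higher but not by as much as class II genes, and some lay lower. Adgre1 (F4/80) had -0.05 and -1.85 in mimic kidneys, Lyz2 5.55 and 2.36, and C1qa 0.84 and -0.47. Csf1r had 3.61 and 3.12, Mrc1 -2.33 and -2.49, and Itgam, a marker of myeloid cells, 1.52 and 2.59. Of the 18 genes, 9 lay more than 1 log2 unit higher, against 5.05% of all genes, and the median gap was 1.07. More than 1 lower were 2, Itgam and Clec9a, and Clec9a was not well above background on either mimic array. Markers of T and NK cells (14 tested of 17) had a median gap of -0.05, and those of B and plasma cells (8 tested of 10) of -0.07, with 0 genes more than 1 log2 unit higher in either list. Kidney markers had a median gap of -0.90, with 4 of 9 more than 1 log2 unit lower in mimic replicate 1. How far cell numbers contribute to the members' values was not tested.

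**Figure D5:**
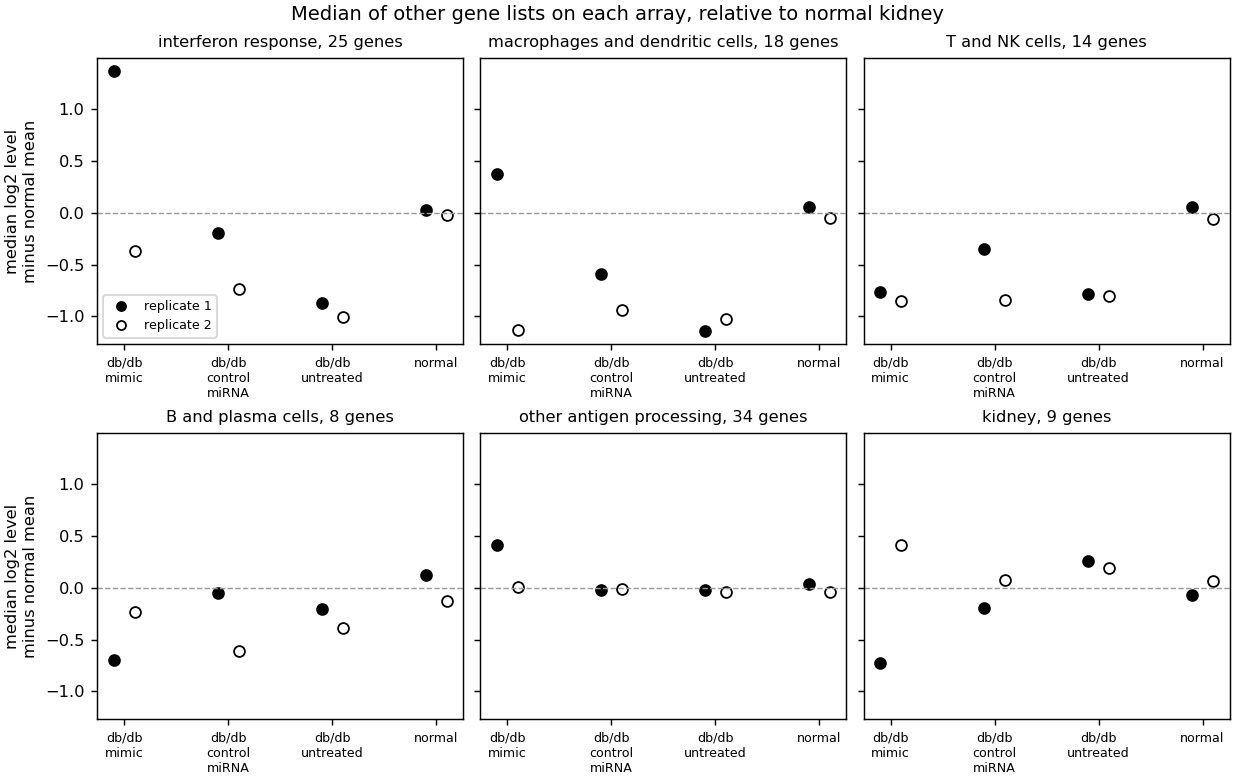
Median log2 level of 6 other gene lists on each array, relative to the mean of the 2 normal arrays (filled points, replicate 1, open points, replicate 2), with groups from mimic at the left to normal at the right. The interferon list lies at 1.37 in mimic replicate 1 and -0.37 in mimic replicate 2, and T and NK cell genes lie at -0.76 and -0.86.

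Markers of tissue around the kidney set the replicates apart as well. Urothelium genes (6 tested) had a summed signal of 4.27 and 1.53 in mimic kidneys, 8.99 and 2.02 in control miRNA kidneys, 1.41 and 1.49 in untreated db/db kidneys and 18.1 and 4.94 in normal kidneys. Fat cell genes (6 tested) had 1.15 and 0.829 in mimic kidneys, 3.91 and 0.730 in control miRNA kidneys, 0.669 and 0.765 in untreated db/db kidneys and 72.2 and 4.37 in normal kidneys. By summed signal, replicate 1 was the higher for both lists in the mimic, control miRNA and normal pairs. In the mimic pair, however, 3 of 6 fat cell genes were higher in replicate 1, with a median gap of -0.03. Endothelial genes (7 tested) had a median difference of 0.30 between untreated db/db and normal kidney, with 7 of 7 positive. Called higher were 2 of them, the receptors Tek (1.14, adjusted p 0.0163) and Eng (0.75, adjusted p 0.0345), where 3.35% of all genes were called in either direction. The part of these tissues in the members' values was not tested.

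Of the 15 genes that failed the detection rule, 11 were well above background on no array. On mimic replicate 1 alone 3 were, H2-DMb2 (-1.20), H2-Eb2 (-4.10) and H2-M11 (-4.23), as was a second, dim probe of the tested gene Nlrc5 (-3.76). H2-Oa, the other chain of H2-O, was well above background on normal replicate 1 (-3.91) and on no other array (-4.56 in normal replicate 2, -6.68 to -6.35 in db/db kidneys). No tested gene was named H2-Q6. Among genes with several detected probes, most showed a like gap between the mimic mice: a second Ciita probe had 0.35 and -4.19 in mimic kidneys, and a second Tap1 probe 1.13 and -3.32. Of second probes well above background on all 8 arrays, the exceptions were the dimmer ones of H2-T23 (-1.16 and -1.76 in mimic kidneys) and H2-Bl (-2.29 and -2.74), which showed gaps of 0.60 and 0.45 where the main probes showed 2.26 and 2.41. In untreated db/db against normal kidney, probes of a gene could differ. A second B2m probe had -3.66 and -3.18 in untreated db/db and -2.01 and -2.35 in normal kidneys, while the main probe's arrays overlapped. For Tap1 the arrays of the second probe overlapped and those of the main probe did not.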

How the data were processed

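Kidney RNA of 8 mice was labelled with Cy3 and hybridised to 1-colour Agilent arrays, 1 per mouse. Intensities were extracted with Agilent Feature Extraction 12.0.3.1, per the file headers, and the deposited processed signal is background-subtracted. The deposited series table holds, as its values show, the ratio of each rescaled signal to the median of its probe, and served as an alternative. Each probe's log2 level was computed from the deposited intensity over the 75th percentile of its array, after averaging spots and leaving out those with outlier flags. A probe had to be flagged as well above background by both arrays of 1 group or more, and a gene was represented by its probe of highest mean. Of 56605 probes, 33761 were named by accession, 9869 by symbol and 310 by synonym through RefSeq, and 12661 kept the array's name.

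Differences were tested with limma 3.58.1 (R 4.3.3), with 1 mean per group over all 8 arrays (4 residual and 2.193 prior degrees of freedom) and Benjamini-Hochberg adjustment over 22368 genes. A gene was called at an adjusted p under 0.05. With 2 mice a group, exact permutation cannot go below 0.3333, so none was used for single genes. The fit was tested on simulated data. Tables and plots were made with Python 3.11.15, pandas 2.3.3 and matplotlib 3.10.9. The labels number the samples within a group and do not state more of their origin, so p-values measure the spread between these samples, which may be technical in part. The number of arrays limits the precision.

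The members and gene lists were chosen with earlier results of these data known. The rule for named genes gave values on all arrays to the pathway genes, the class II chains and 2 class Ia and 9 class Ib chains chosen by name, and to further members that passed a test or had 1 of the 3 largest differences in a comparison. H2-Q5, H2-Bl and the examples from other lists, which are outside it, were named after their values were seen. Alternatives were no filter, a filter on all arrays, normexp background, quantile normalization, a variance trend, each probe on its own, only the arrays compared, the replicate number as a block and leaving out each array. Some items are not reported here.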

Additional observations from a re-analysis of the deposited data

How the results depend on the processing

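With 2 mice a group, each comparison leans on the spread of all 4 groups, and dim probes such as that of H2-Ob are limited by background. Over the members' single-gene differences and all alternatives, 3619 values kept their side of the threshold, 110 passed it only under the alternative, 11 lost it, 130 uncalled values changed sign and 0 called values reversed. Leaving out each array in turn gave between 0 and 3 called members for untreated against normal, 0 and 2 for control miRNA against normal, 0 and 33 for each of mimic against normal, untreated and control miRNA, and 0 throughout for control miRNA against untreated. The class II minus class I difference then ran from -1.44 to -0.60 for untreated against normal, -1.24 to -0.35 for control miRNA against normal, -0.49 to 0.75 for mimic against normal, -0.09 to 0.57 for control miRNA against untreated, 0.43 to 1.61 for mimic against untreated and 0.23 to 1.39 for mimic against control miRNA. With only the arrays compared, 3 members were called for untreated against normal in place of 0. Without the filter on dim probes, 1 member was called in each comparison with normal mice, H2-Oa, with adjusted p of 0.0276 for untreated, 0.0302 for control miRNA and 0.0156 for mimic (limma), and the class II minus class I difference for mimic against normal was 0.816 in place of 0.148. H2-Oa was well above background on 1 array, and leaving out the filter adds such genes by construction. The count for control miRNA against normal, 1 in the report, was 0 with a variance trend, normexp background, quantile normalization, the replicate block and the filter on all arrays. With the replicate block, 0 members were called in any comparison, and over all genes 429 were called for untreated against normal (749 without it), 180 for control miRNA against normal (385) and 1426 for mimic against normal (1849). Over all genes, deviations of same-numbered mice correlated at -0.019 to 0.159 over pairs of groups. Over 37 members, the replicate gaps of the mimic, control miRNA and normal pairs correlated with each other at r of 0.74 to 0.75. Those of the mimic and untreated pairs correlated at -0.15. Whether the numbers pair the mice was not tested. Quantile normalization and normexp moved the median of all genes by less than 0.1 log2 units in each comparison. Where not named here, the cause of a change was not tested.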
